A study of Saccharomyces cerevisiae with 6 samples.

Results

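The 10 genes described here encode mitochondrial enzymes of the citric acid (tricarboxylic acid, TCA) cycle of the budding yeast Saccharomyces cerevisiae, other than succinate dehydrogenase. They were chosen by gene symbol, taking the probe set with the highest mean where a gene had several. Each of the 10 had a single probe set, out of 5449 S. cerevisiae genes measured on the array. The members are CIT1 (YNR001C), ACO1 (YLR304C), IDH1 (YNL037C), IDH2 (YOR136W), KGD1 (YIL125W), KGD2 (YDR148C), LSC1 (YOR142W), LSC2 (YGR244C), FUM1 (YPL262W) and MDH1 (YKL085W). RNA was compared between 3 biological samples of wild-type yeast and 3 of a strain deleted for RPH1, on 1 Affymetrix array each. Both strains had the W303 laboratory background and grew at 30 °C in YPD, a rich medium with glucose, until harvest in log phase. The labels do not say how many clones of the deletion strain were used. Rph1, the product of the deleted gene, binds DNA through zinc fingers and carries a JmjC domain that demethylates histones. The study asks which genes it regulates in unstressed growth. Beyond the RPH1 deletion the labels give no other difference between the strains.

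The citric acid cycle oxidises the acetyl group of acetyl-CoA and hands the electrons to the respiratory chain. It also supplies alpha-ketoglutarate and oxaloacetate for amino acid synthesis. In yeast growing on glucose, fermentation carries most of the carbon and many cycle genes are held partly repressed. The Hap2/3/4/5 complex activates respiratory genes. The retrograde factors Rtg1 and Rtg3 drive CIT1, ACO1, IDH1 and IDH2 when mitochondrial respiration is reduced.

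As a check of the labels, RPH1 read 305, 362 and 385 on the wild-type arrays and 4.52, 8.18 and 8.99 on the deletion arrays. Signal is the MAS5 intensity of a probe set on a linear scale. Background was set at the 95th percentile of fission yeast probe sets on the same array, which lay between 8.59 and 12.7 on single arrays. Both strains carried bright alpha-cell transcripts, such as MF(ALPHA)1 (means 5763 wild type, 5802 deletion), and dim a-cell transcripts such as BAR1 (81.4 and 74.9). The replicate 1 arrays carry sample codes of another form in the labels and stood apart from the others. With genotype in the same fit, limma called 1992 of 5402 tested genes (36.9%) different between replicate 1 and replicates 2 and 3. Nothing in the labels says whether same-numbered cultures were grown together.

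All 10 cycle genes were expressed far above background. In RNA from whole cultures, less RNA per cell and fewer expressing cells cannot be told apart. Their signals ran from 675 to 5404, and the lowest, LSC2 on wild-type array 1, was 69.6 times the background of its array. The array also holds fission yeast probe sets with the symbols of 6 members (cit1, idh1, idh2, kgd2, lsc1 and fum1). Those read between 0.254 and 17.4.

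None of the 10 cycle genes passed the test for a difference between the deletion and wild type. Under limma with Benjamini-Hochberg adjustment over 5402 genes and a threshold of 0.05, 0 members were called. Over all tested genes 2 were called, 0.037%, and both were lower. They include the deleted gene RPH1 itself, which had the lowest log2 difference of all tested genes, -5.66. At an unadjusted p under 0.05 there were also 0 members, against 4.33% of tested genes on the higher side and 1.0% on the lower. The log2 differences, deletion minus wild type, ran from -0.01 to 0.29 with a median of 0.063, and 8 of 10 were above 0. Over all tested genes the median was 0.0012 and 50.4% were above 0. The members' median was 0.027 after centring each array on its median, with 6 of 10 above 0, and 0.026 without deletion array 1. Within replicate pairs 1, 2 and 3 the members' median was 0.078, 0.059 and 0.088. The standard error (SE) of a single member's difference had a median of 0.089.

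**Figure D1:**
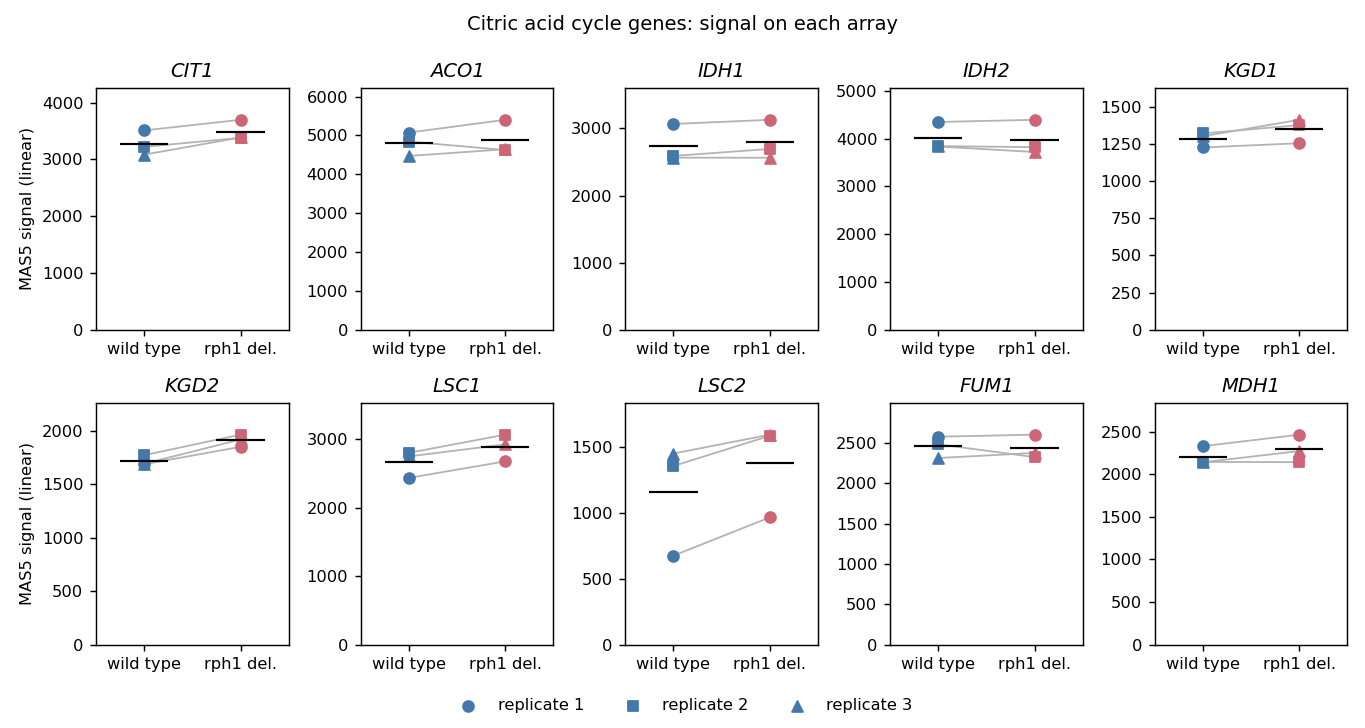
MAS5 signal (linear axis from 0) of each of the 10 cycle genes on the 3 wild-type arrays (blue) and the 3 rph1 deletion arrays (red). Grey lines join arrays with the same replicate number and black bars are group means. KGD2 is the one gene whose groups do not overlap in these deposited values, and LSC2 shows a low replicate 1 in both genotypes.

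For the first steps of the cycle the log2 differences lay between -0.01 and 0.09. CIT1 encodes the mitochondrial citrate synthase, which joins acetyl-CoA to oxaloacetate. It read 3510, 3220 and 3083 on wild-type arrays 1, 2 and 3, against 3697, 3379 and 3385 on deletion arrays 1, 2 and 3. Each deletion array was above its same-numbered wild-type array, but the groups overlapped, because wild type 1 exceeded deletions 2 and 3. On the log2 scale the difference came to 0.09 (SE 0.08) at a limma adjusted p of 1.00. ACO1 encodes aconitase, an iron-sulfur enzyme that turns citrate into isocitrate. It read 5074, 4843 and 4473 in wild type against 5404, 4625 and 4646 in the deletion, so the groups overlapped and the replicate 2 pair went the other way. The log2 difference was 0.03 (SE 0.10).

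IDH1 and IDH2 encode the subunits of the NAD-dependent isocitrate dehydrogenase, IDH2 being the catalytic one. The IDH1 signal was 3067, 2590 and 2564 in wild type against 3129, 2695 and 2563 in the deletion. IDH2 gave 4345, 3841 and 3833 in wild type against 4392, 3819 and 3717 in the deletion. Both genes were highest on the replicate 1 arrays of either strain, and the genotypes overlapped throughout. The log2 differences were 0.03 for IDH1 (SE 0.11, 95% interval -0.25 to 0.30) and -0.01 for IDH2 (SE 0.10, 95% interval -0.25 to 0.23). The direction of ACO1, IDH1 and IDH2 turned under several settings, given with the other settings.

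KGD1, KGD2, LSC1 and LSC2, of the alpha-ketoglutarate dehydrogenase and succinyl-CoA ligase, were higher in the deletion within every replicate pair as deposited, though after median centring this no longer held for KGD1. KGD2 encodes the dihydrolipoyl transsuccinylase core of the dehydrogenase complex. Its signal was 1685, 1770 and 1690 in wild type against 1848, 1962 and 1917 in the deletion. Every deletion array lay above every wild-type array, the only member for which this held as deposited (1 of 10, against 7.55% of tested genes). After quantile normalization it held for 2 of 10 (6.39% of tested genes). The group means were 1715 ± 47.6 and 1909 ± 57.3 (SD, n = 3 each), a difference of 11.3% with a 95% interval from -0.794% to 24.9%. On the log2 scale this was 0.15 (SE 0.07, unadjusted p = 0.0633, limma adjusted p = 0.939). The exact permutation test over the 6 arrays gave p = 0.1, the smallest it allows.

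KGD1 encodes the dehydrogenase subunit that decarboxylates alpha-ketoglutarate. It read 1228, 1323 and 1304 in wild type against 1257, 1379 and 1415 in the deletion. The ranges overlapped, and the difference of 0.07 (SE 0.08) was smaller than its error. KGD4 (YFR049W), named here after its values were seen, encodes a small subunit that tethers the dihydrolipoamide dehydrogenase to the core. It read 1344, 1371 and 1358 in wild type against 1545, 1538 and 1509 in the deletion, with no overlap. Its log2 difference was 0.17 (SE 0.06, unadjusted p = 0.0337, limma adjusted p = 0.786). LPD1, the dihydrolipoamide dehydrogenase shared with the pyruvate and glycine complexes, read 3817, 3660 and 3528 in wild type against 3356, 3602 and 3762 in the deletion. Those ranges overlapped and its difference was -0.04 (SE 0.08).

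LSC1 and LSC2 encode the alpha and beta subunits of succinyl-CoA ligase, the step that makes nucleoside triphosphate directly. LSC1 gave 2435, 2802 and 2749 in wild type against 2678, 3068 and 2926 in the deletion. The fitted difference was 0.12 (SE 0.09) at a limma adjusted p of 1.00. The within-pair differences were 0.14, 0.13 and 0.09 for replicates 1, 2 and 3, and the overlap came from replicate 1, which was low in both strains. LSC2 gave 675, 1357 and 1451 in wild type against 967, 1586 and 1595 in the deletion. Its fitted difference of 0.29 had the widest error of the 10 (SE 0.34, 95% interval -0.54 to 1.12, limma adjusted p = 1.00). The pairs differed by 0.52, 0.23 and 0.14. The estimate was -0.059 without wild-type array 1 and 0.53 without deletion array 1. Each of those fits keeps replicate 1, which was low in both strains, in 1 group only, so neither isolates the genotype. With replicate 1 against 2 and 3 as a term in the fit the estimate was 0.29 (SE 0.08, limma adjusted p = 0.193). Within replicates 2 and 3 it was 0.18.

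The closing steps had log2 differences of -0.01 and 0.06. FUM1 encodes fumarase, made from a single gene for both the mitochondria and the cytosol. It read 2580, 2486 and 2315 in wild type against 2605, 2327 and 2378 in the deletion, with overlapping groups and a log2 difference of -0.01 (SE 0.08). MDH1 encodes the mitochondrial malate dehydrogenase, which regenerates oxaloacetate. It gave 2329, 2144 and 2140 in wild type against 2464, 2141 and 2271 in the deletion. These groups overlapped too, at a log2 difference of 0.06 (SE 0.08, 95% interval -0.15 to 0.26). Neither interval excludes 0, and a p that misses the threshold does not show equal levels.

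Taking replicate number into account narrowed the errors without producing a call. With the replicate number as a block the median SE of the members was 0.057, and 0 of 10 members passed, where 0.111% of tested genes did (0.0555% higher and 0.0555% lower). Under the block, 2 members had an unadjusted p below 0.05 in limma, both higher, against 9.4% of tested genes on that side and 3.57% on the lower. They were KGD2 (limma adjusted p = 0.349) and LSC2 (limma adjusted p = 0.283). The same 2 members had an unadjusted p under 0.05 with replicate 1 against 2 and 3 as a term (10.4% of tested genes higher, 4.11% lower) and within replicates 2 and 3 alone (7.52% and 3.07%). With that term 0 members passed after adjustment, where 0.537% of tested genes were called higher and 0.0926% lower (0.629% in all). Their adjusted p stayed at 0.193 or above in these 3 fits.

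**Figure D2:**
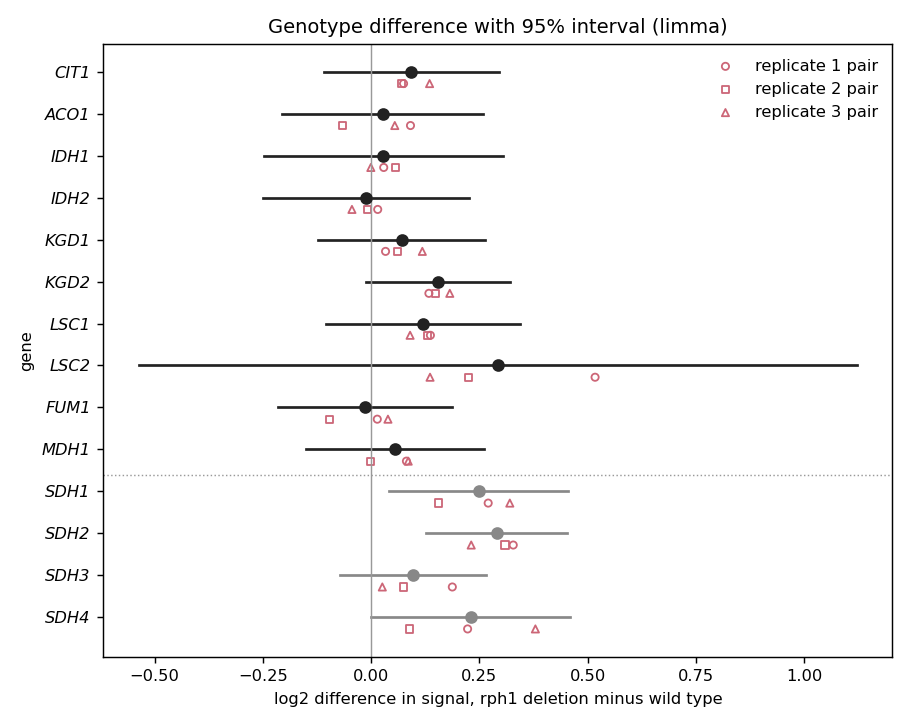
Log2 difference in signal, rph1 deletion minus wild type, for the 10 cycle genes (black) and the 4 succinate dehydrogenase genes (grey, under the dotted line). Points with bars are limma estimates with 95% intervals, and open symbols are the 3 same-numbered pairs. All 3 pairs lie above 0 for CIT1, KGD1, KGD2, LSC1, LSC2 and the succinate dehydrogenase genes (for KGD1 not after median centring), while the bars of all 10 cycle genes include 0.

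As deposited, the deletion was higher in all 3 replicate pairs in 5 of the 10 members, CIT1, KGD1, KGD2, LSC1 and LSC2. In 0 members it was lower in all 3. Of all tested genes 19.9% were higher in all 3 pairs and 14.7% lower. The count depended on scaling, at 4 of 10 after median centring (without KGD1; 14.3% of tested genes) and 7 of 10 after quantile normalization (with ACO1 and MDH1; 17.4%). On the lower side, 1 of 10 (IDH2) was lower in all 3 pairs after median centring and 0 after quantile normalization. The share of tested genes lower in all 3 pairs was not computed for these scalings, so these lower-side counts have no background beside them. Since the members were chosen with results of these arrays known, these counts were not tested.

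Succinate dehydrogenase, the cycle enzyme that is also complex II of the respiratory chain, follows the ligase in the cycle. Its 4 genes had log2 differences of 0.25 (SDH1, SE 0.09), 0.29 (SDH2, SE 0.07), 0.10 (SDH3, SE 0.07) and 0.23 (SDH4, SE 0.10), a median of 0.24. SDH3, a membrane anchor subunit, read 1330, 1359 and 1375 in wild type against 1515, 1432 and 1400 in the deletion. SDH4, the other anchor, gave 1912, 1815 and 1640 in wild type against 2232, 1929 and 2134 in the deletion. As deposited, each deletion array lay above each wild-type array in all 4 genes (7.55% of tested genes). After median centring the groups of SDH3 and SDH4 overlapped, and 5.5% of tested genes had every deletion array above. Of the 4 genes 0 passed limma's adjusted test as deposited, with 3 at an unadjusted p under 0.05 (4.33% of tested genes on the higher side). The 8 genes that encode KGD1, KGD2, succinyl-CoA ligase and succinate dehydrogenase were higher in all 3 pairs as deposited (19.9% of tested genes). The same held after quantile normalization (17.4%), and for 7 of the 8 after median centring (14.3%), KGD1 being the exception. This was not particular to them, as CIT1 was also higher in all 3 pairs under each scaling. After quantile normalization ACO1 and MDH1 were too. LPD1, of the same dehydrogenase as KGD1 and KGD2, was not, with pair differences of -0.19, -0.02 and 0.09. The 8 genes were set together after their values were seen. Whether their differences exceed those of the other cycle genes was not tested.

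**Figure D3:**
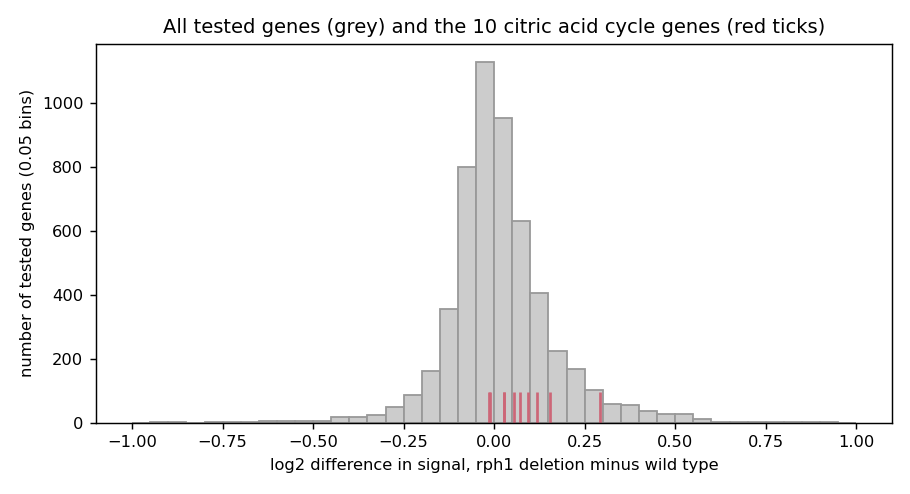
Number of tested genes by log2 difference, deletion minus wild type, in bins of 0.05 (grey; 8 of 5402 genes lie outside the plotted range), with the 10 cycle genes as red ticks. The cycle genes lie between -0.01 and 0.29, with KGD2 at percentile 86.9 and LSC2 at percentile 95.3 of the tested genes.

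Between replicate 1 and replicates 2 and 3, the isocitrate dehydrogenase and succinyl-CoA ligase genes differed in opposite directions. IDH1 and IDH2 were higher on the replicate 1 arrays, and LSC1 and LSC2 were lower. The fitted log2 shifts, replicate 1 minus replicates 2 and 3, were 0.25 for IDH1 (SE 0.05, limma adjusted p = 0.0164) and 0.20 for IDH2 (SE 0.05, adjusted p = 0.0286). They were -0.18 for LSC1 (SE 0.05, adjusted p = 0.0467) and -0.89 for LSC2 (SE 0.09, adjusted p = 0.00265). These 4 of 10 members passed, a share near the 36.9% of all tested genes (18.4% higher and 18.5% lower on replicate 1). The shifts of the other 6 did not pass, from -0.12 for KGD1 (SE 0.05, limma adjusted p = 0.108) to 0.17 for ACO1 (SE 0.06, adjusted p = 0.0694). LSC2 alone had a shift of over 1.2-fold. It was 1.85-fold lower in replicate 1, and 1.63% of tested genes had a lower shift. In wild type its shift was -1.05 and in the deletion -0.72. The interaction of genotype with this split did not pass for LSC2 (0.34, SE 0.12, unadjusted p = 0.0341, limma adjusted p = 0.739) or for any other member, and 0 of 5402 genes passed (358, or 6.63%, at an unadjusted p under 0.05).

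**Figure D4:**
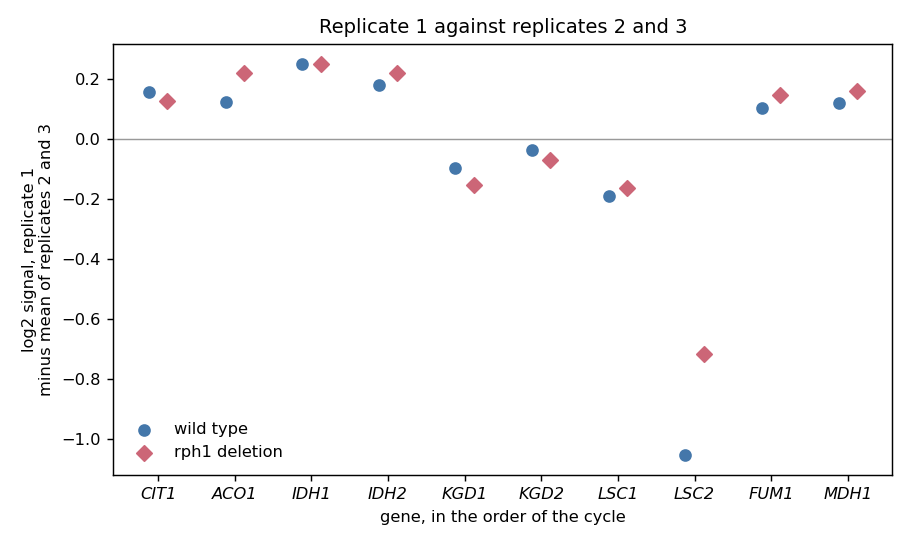
Log2 signal on the replicate 1 array minus the mean of replicates 2 and 3, for each cycle gene in wild type (blue circles) and in the rph1 deletion (red diamonds). LSC2 lies lowest, at -1.05 and -0.72. Of the 10 genes, IDH1, IDH2, LSC1 and LSC2 passed the test of this shift, a share near that of all tested genes.

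Genes around the cycle were read from companion lists. The transcriptional regulators, namely the HAP complex subunits and the retrograde genes, had 0 of 8 called between genotypes and a median log2 difference of 0.027. HAP4, the glucose-regulated activating subunit, read 1459, 868 and 1007 in wild type against 1494, 983 and 961 in the deletion, a difference of 0.05 (SE 0.25). It was high on replicate 1 in both strains, by 0.63 on the log2 scale (SE 0.07, limma adjusted p = 0.00389). In all, 5 of the 8 regulators were higher on replicate 1 by this test (HAP2, HAP3, HAP4, HAP5 and RTG1), where 18.4% of tested genes were, and 0 were lower. HAP5, a DNA-binding subunit, differed between genotypes by 0.19 (SE 0.10, limma adjusted p = 1.00). HAP2 and HAP3 differed by 0.15 (SE 0.19) and -0.09 (SE 0.12). The retrograde genes RTG1, RTG2 and RTG3 and the negative regulator MKS1 differed by 0.09, 0.0048, -0.06 and -0.07.

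The isozymes and paralogs had 0 of 7 called. CIT2, the peroxisomal citrate synthase and a target of the retrograde factors, read 4323, 3143 and 3021 in wild type against 4386, 3560 and 3409 in the deletion. Like CIT1 it was highest on replicate 1 in both strains, and its genotype difference was 0.13 (SE 0.17). CIT3, a minor mitochondrial citrate and methylcitrate synthase, gave 55.7, 56.3 and 57.6 in wild type against 44.1, 54.0 and 52.6 in the deletion, all below wild type. Its difference was -0.18 (SE 0.10, limma adjusted p = 1.00). MDH3, the peroxisomal malate dehydrogenase, gave 1921, 2052 and 2027 in wild type against 2277, 2353 and 2131 in the deletion, without overlap. The difference was 0.17 (SE 0.08, limma adjusted p = 0.933). MDH2, the cytosolic form, read 620 and 741 on the replicate 1 arrays of wild type and deletion and between 353 and 401 on the other 4. Its genotype difference was 0.10 (SE 0.33).

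For carbon entering the cycle, 0 of 10 genes were called and 8 were below 0, with a median of -0.029. The pyruvate dehydrogenase subunit genes PDA1, PDB1 and LAT1 differed by -0.0053, -0.04 and -0.02 (SE 0.07 to 0.08). The pyruvate carboxylase gene PYC1 differed by 0.09 (SE 0.21) and PYC2 by 0.02 (SE 0.21), and both were lower on replicate 1 (limma adjusted p = 0.0419 and 0.00709). Among carriers of cycle intermediates 0 of 8 were called. ODC2, an oxodicarboxylate carrier, read 1709, 1735 and 1689 in wild type against 1427, 1634 and 1570 in the deletion, every deletion array below (3.04% of tested genes), at -0.15 (SE 0.08, limma adjusted p = 1.00). The citrate carrier gene CTP1 differed by -0.17 (SE 0.12) and DIC1, the dicarboxylate carrier gene, by 0.17 (SE 0.22).

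Glucose-repressed genes outside the cycle were read as a rough view of glucose status. Of these, 0 of 13 were called, 9 were higher and 4 lower, and the median was 0.21. That median was 0.017 with only genes of mean signal above 100, 0.10 with an offset of 32 and 0.052 with array weights. Within replicate pairs 1, 2 and 3 it was 0.098, -0.13 and 0.27, so the list gives no steady measure. The acetyl-CoA synthetase gene ACS1 was higher on every deletion array, at 296, 342 and 350 in wild type against 393, 414 and 421 in the deletion (0.32, SE 0.09, limma adjusted p = 0.511). The glyoxylate cycle genes MLS1 and ICL1 were set by 1 array. MLS1 read 32.2, 50.1 and 31.1 in wild type against 46.7, 32.8 and 106 in the deletion. ICL1 read 97.3, 98.7 and 97.0 in wild type against 109, 90.0 and 176 in the deletion. Deletion array 3 was thus the highest for both, and without it the median of the list was -0.025. Of the 10 cycle genes, KGD1 and LSC2 had their highest signal on that array. The part of glucose status in the cycle genes' differences was not tested.

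**Figure D5:**
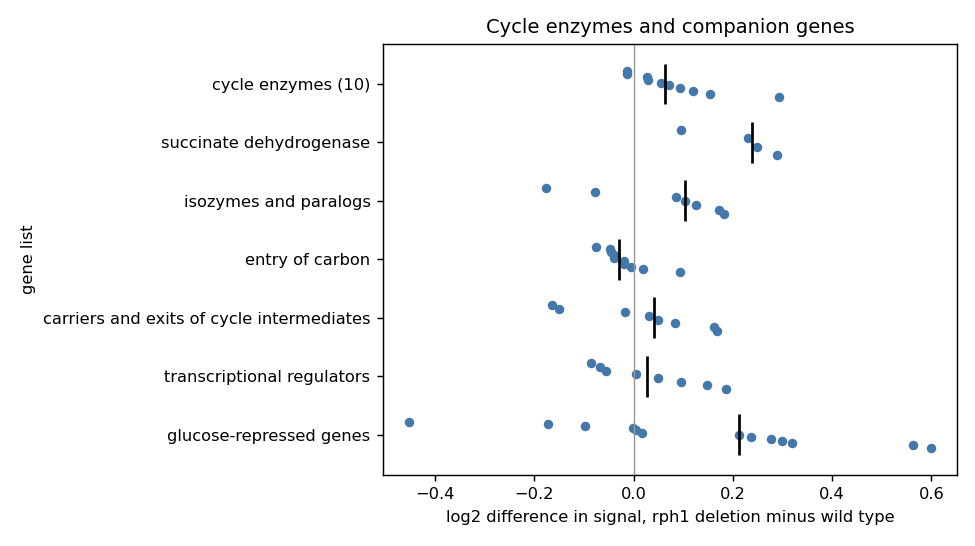
Log2 difference, deletion minus wild type, for each gene of the cycle list and 6 companion lists (points, spread vertically by rank), with list medians as black bars. Succinate dehydrogenase has a median of 0.24 and the genes of carbon entry a median of -0.029, and 0 of the genes shown passed the test.

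The genes whose log2 signals over the 6 arrays were most like the mean profile of the 10 members were AVT6, SPS4, VPS35, PTP1 and UBC8, with Pearson r from 0.982 to 0.989. These are the 5 highest among tested genes outside the member, companion and mating-type lists. Over all 5402 tested genes, listed ones included, 108 had r above 0.9. The mean profile lay between -0.07 and -0.01 on the wild-type arrays and between 0.038 and 0.043 on the deletion arrays. The 5 genes had log2 genotype differences from 0.27 to 0.51 and replicate 1 shifts from -0.22 to -0.05. Since the mean profile joins members that moved in opposite directions on replicate 1, the likeness is given as a description only.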

How the data were processed

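The authors' deposited table holds MAS5 signal intensities per probe set on a linear scale, per the submitters' processing notes. Neither the MAS5 version nor its target intensity is stated there. The 2% trimmed mean of each array was 500.2, so values were used as deposited and log2-transformed. Total RNA (10 µg) was labelled with biotin, per the labels' protocols.

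Probe sets were named through the platform annotation and the RefSeq gene table, giving 5498 S. cerevisiae probe sets for 5449 genes. The array's 1746 fission yeast probe sets gave the background. Genes with a mean log2 signal above the 95th percentile of those probe sets' means (8.32 as a signal) were tested, 5402 in all. All 10 members passed this filter. No sequences are shown because the tables used here hold none, and promoter motifs were not searched.

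The genotype test used lmFit and eBayes of limma 3.58.1 under R 4.3.3, 2-sided and with Benjamini-Hochberg adjustment over all tested genes. An exact permutation test over arrays, whose smallest p is 0.1, was run for single genes. The fit was tested on simulated data. Figures used matplotlib 3.10.9 in Python 3.11.15. The number of arrays, 3 per group, limits precision, and the p-values measure the spread between these samples, which the series text calls biological without saying whether they were separate cultures.

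Deviations from the group means correlated at 0.768, 0.454 and 0.415 for same-numbered arrays 1, 2 and 3, each above 0.1, and same-numbered arrays were treated as pairs. Both crossed pairs correlated more than the same-numbered pairs 2 and 3, at 0.535 (wild type 3, deletion 2) and 0.471 (wild type 2, deletion 3). The 0.1 criterion is thus met by either pairing of replicates 2 and 3 and cannot choose between them, so that pairing is not settled. Alternatives were other scalings, an offset, filters, an intensity trend, array weights, a replicate block, replicate 1 as a term, replicates 2 and 3 alone, probe set averaging and leaving out each array. The members and companion lists were chosen with earlier results of these data known. Genes named are the members, RPH1, mating-type markers, genes of the companion lists (for carriers and glucose-repressed genes, those among the 4 with the smallest unadjusted p) and the 5 nearest profiles. KGD4 was added after its values were seen.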

Additional observations from a re-analysis of the deposited data

How the results depend on the processing

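No cycle gene was called under any of the 17 alternatives (0 members in each). The direction of CIT1, KGD1, KGD2, LSC1 and MDH1 held in all 17, with MDH1 at 0.0018 without deletion array 1. The filters, intensity trend, replicate block, replicate 1 term and probe set averaging leave each member's estimate unchanged, so direction could not turn there. Over all genes, limma called 2 as deposited, RPH1 among them. It called 1 after quantile normalization, with an offset of 32, with a mean signal above 100 and with an intensity trend. It called 6 with the replicate block, 34 with replicate 1 as a term, and 202 with array weights, whose estimate had not converged and which gave the replicate 1 arrays weights of 0.253 and 0.213. Leaving out single arrays gave 1 to 2. At an unadjusted p under 0.05, 234 genes were higher and 54 lower as deposited, 175 and 90 after median centring, and 211 and 90 after quantile normalization. The members' median was 0.027 after median centring and 0.026 to 0.075 with single arrays left out. The median of isozymes and paralogs was 0.026 within replicates 2 and 3 and -0.019 to 0.16 with single arrays left out, that of carbon entry genes -0.065 after median centring, that of regulators -0.067 to 0.11 and that of glucose-repressed genes -0.025 to 0.26 with single arrays left out. Signs turned for ACO1 after median centring (-0.0095), with array weights (-0.044) and within replicates 2 and 3 (-0.0058), for IDH1 after median centring (-0.0075) and for IDH2 after quantile normalization (0.0072). With single arrays left out, ACO1 ran from -0.047 to 0.068, IDH1 from -0.056 to 0.11, IDH2 from -0.086 to 0.047, LSC2 from -0.059 to 0.53 and FUM1 from -0.063 to 0.021. Leaving out 1 array unbalances the replicate numbers between the groups, so these ranges also hold differences between replicates. The cause of the turned signs was not tested. With the replicate block no member changed its call (smallest adjusted p = 0.283).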
